A study of Homo sapiens with 8 samples.

Results

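The genes described here are 31 targets of the transcription factor p53, picked by name from the p53 pathway with earlier results of these data known. All 31 had a row in the deposited tables, among 23621 rows other than spike-ins. Their levels come from RNA sequencing of the human cell line NALM6, which was established from a B-cell precursor leukaemia (B-ALL). The cells carried a construct for doxycycline-induced HMGN1, a protein that binds nucleosomes. The construct encoded wild-type HMGN1 (WT) or the nucleosome-binding-deficient S20,24E mutant (SE), in which serines 20 and 24 are exchanged. The 4 groups were WT with vehicle, WT with doxycycline (DOX, 100 ng/ml), SE with vehicle and SE with DOX, each for 6 hours and each with 2 biological replicates, lettered A and B. Every library thus came from cells with a construct, and the controls of the DOX groups are the vehicle groups of the same construct. The sources used here do not say whether the WT and SE cells are single clones or pools, so a difference between constructs and a difference between the lines that carry them cannot be told apart.

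p53 is held at low levels by MDM2 and MDM4 and is released from them when DNA is damaged or nucleoli are stressed. It then binds paired elements near its targets, among them genes that halt the cell cycle (CDKN1A), start apoptosis (BBC3, BAX, FAS), repair DNA (XPC, DDB2), handle oxidants (TP53I3, SESN1) and, in a feedback loop, restrain p53 itself (MDM2, PPM1D). Many of these targets keep a basal level in unstressed cells.

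Each value is given on one of 2 scales. Unnormalized FPKM, the fragments of a gene divided by its transcript length and by all fragments mapped, expresses a gene relative to the rest of the library. Spike-in-normalized FPKM sets it against the ERCC spike-ins, synthetic RNAs added in equal volume to RNA from equal numbers of cells. The scales differ between constructs: normalized values were 1.06 to 1.26 times the unnormalized ones in the WT libraries and 0.705 to 0.996 times in the SE libraries (medians over genes). The median of the 11465 genes tested was therefore higher in WT by 0.43 log2 with spike-in normalization and by 0.02 without it. More RNA per cell, less spike-in delivered and miscounted cells cannot be told apart, nor can fewer expressing cells and less RNA per cell. HMGN1 itself was at 793 to 809 unnormalized FPKM in WT and 1061 to 1427 in SE, and was not raised in the libraries labelled DOX. All 14 B-cell precursor markers passed the minimum of 1 FPKM on average, against 2 of 12 T-cell, 3 of 12 myeloid, 3 of 12 adherent-cell and 0 of 12 erythroid markers.

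Relative to the rest of the transcriptome, the listed p53 targets as a group stood lower in the WT cells, and TP53I3 stood higher. This describes the chosen list: 52 other p53 targets tested had an unnormalized median difference of -0.05 log2, beside 0.02 for all genes. Of the 31 targets, 27 averaged at least 1 FPKM and were tested, and 25 of these 27 lay below the median difference of all genes on both scales. The exceptions were TP53I3 and TRIAP1. On the unnormalized scale the median of the 27 was -0.29 log2 (WT minus SE, over both treatments), beside 0.02 for all genes. On the spike-in scale it was 0.12, beside 0.43, and with single libraries left out it ran from 0.06 without SE DOX A (0.33 for all genes) to 0.22 without SE DOX B (0.52). On that scale 21 of the 27 differences were above 0, beside 96% of all genes. Averaged over both treatments, most targets were thus higher in WT, but by less than the median gene. With vehicle alone 15 of the 27 were above 0, with a median of 0.04, beside 93.3% of all genes. With DOX 24 were, with a median of 0.24, beside 97.1%.

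Counts of separated libraries show the same. In unnormalized FPKM, 15 of the 27 targets were lower in each of the 4 WT libraries than in any SE library, where 7.89% of all genes were. TP53I3 alone was higher in each WT library than in any SE library, where 11.5% of all genes were. On the spike-in scale, 7 targets (MDM4, PPM1D, CCNG1, BAX, AEN, POLH and TP53I3) were higher in every WT library, against 65.2% of genes, and 0 were lower in every WT library, against 0.340%. Leaving out a library can only keep or add separations, so these counts could not fall. With any 1 library left out, 15 or 16 targets separated below in unnormalized FPKM, beside 8.58% to 11.2% of genes. Above it was 1, beside 12.2% to 15.6%.

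**Figure D1:**
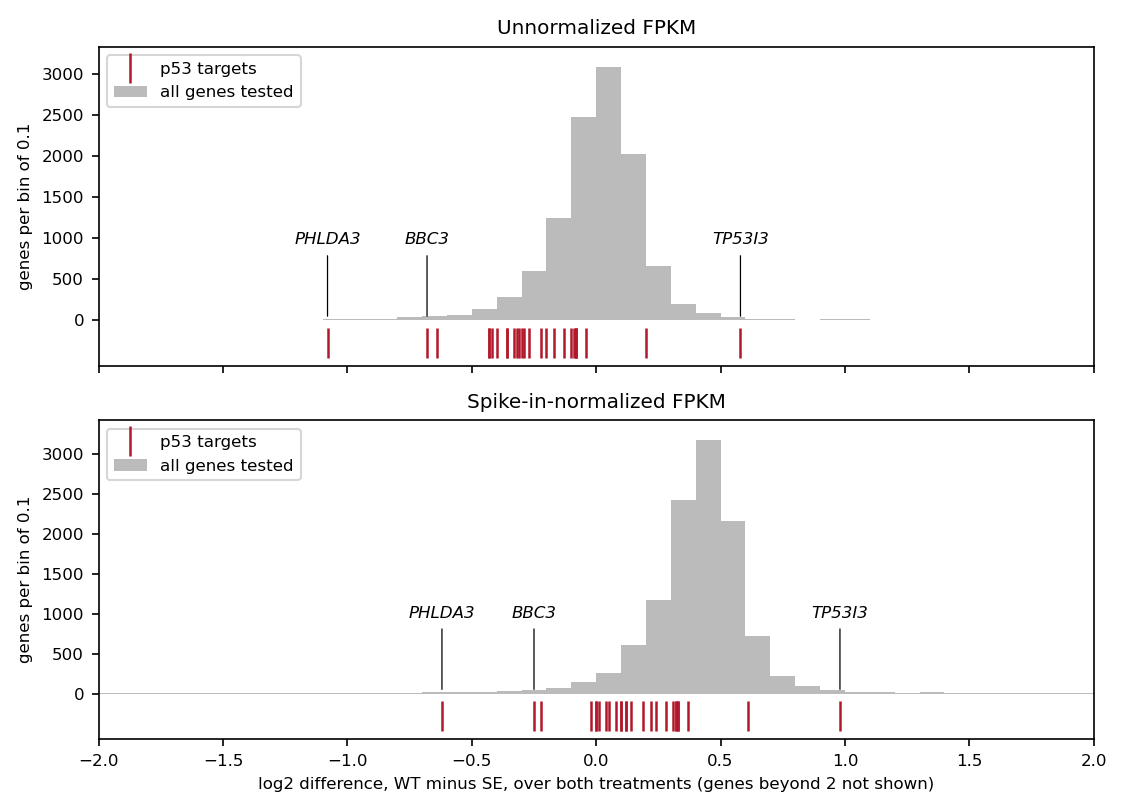
Histograms of the log2 difference between constructs (WT minus SE, over both treatments) for all genes tested, in bins of 0.1, with the p53 targets as red ticks under each histogram. The top panel is unnormalized FPKM, where the gene median is 0.02 and the targets' median -0.29, and the bottom panel is spike-in-normalized FPKM, where these are 0.43 and 0.12. TP53I3 lies to the right of the bulk and PHLDA3 and BBC3 lie to the left in both panels.

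Few single targets passed the test, which was limma with Benjamini-Hochberg adjustment over all genes and a threshold of 0.05. Over both treatments on the spike-in scale, 5 of 27 targets did, where 60.5% of all genes did: MDM4, PPM1D, TRIAP1 and TP53I3 were higher in WT (60.1% of genes were called higher) and PHLDA3 was lower (0.419% were called lower). Apart from TP53I3, these calls rested on treating the vehicle and DOX libraries of a letter as separate samples. With 1 mean per construct and letter, TP53I3 was the only target called (limma adjusted p = 0.000573) and PHLDA3 was not (0.194). Of all genes, 338 of 11465 were called in that fit. TP53I3 was also the only one called without WT vehicle A, WT DOX A, SE vehicle A, SE DOX A or SE vehicle B. Without WT vehicle B or WT DOX B, TP53I3, PHLDA3 and TRIAP1 were called, and without SE DOX B 10 targets were. The number of all genes called moved with the same libraries: it was 36 to 99 of 11465 without any 1 of the first 5, 4802 and 6203 without WT vehicle B and WT DOX B, and 8903 without SE DOX B. In unnormalized FPKM 0 of 27 targets passed, where 0.494% of genes did. At an unadjusted limma p under 0.05 there were 17, of which TP53I3 was higher and 16 were lower in WT, where 9.40% and 7.70% of genes were.

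**Figure D2:**
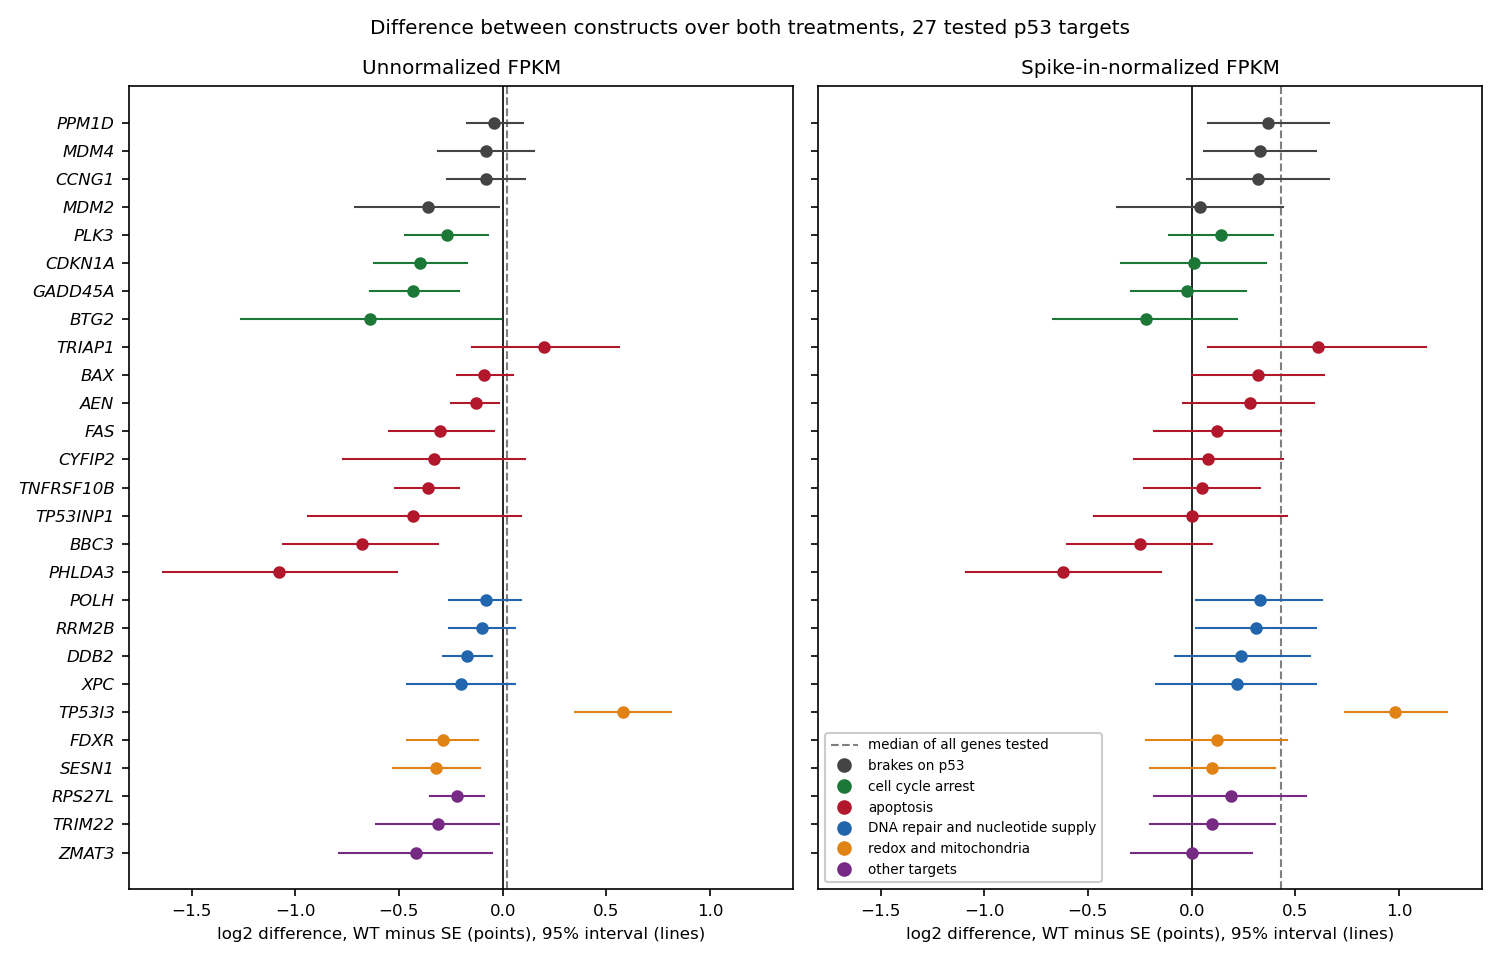
Log2 difference between constructs (WT minus SE, over both treatments; points) with 95% interval (lines) for the 27 tested p53 targets, coloured by role, in unnormalized (left) and spike-in-normalized FPKM (right). The dashed line is the median of all genes tested, and 25 of the 27 points lie to its left in each panel, with TP53I3 and TRIAP1 to its right.

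The levels spanned a wide range within the pathway. Averaged over the 8 libraries in unnormalized FPKM, which is per length and so comparable between genes, the highest were CCNG1 at 82.3, TRIAP1 at 74.7, RPS27L at 62.4, MDM2 at 52.9, CYFIP2 at 52.4 and CDKN1A at 48.9. The lowest of the tested were FAS at 2.91, BBC3 at 2.22 and PHLDA3 at 1.49. TP53I3 was near the lower middle, at 8.77. Not tested were SPATA18, a mitochondrial quality-control gene listed at 0 in all 8 unnormalized columns, PLK2 and PERP, a polo-like kinase and a membrane protein of apoptosis and adhesion that reached at most 0.0124 and 0.0219, and GDF15. GDF15, a secreted stress cytokine, lay between 0.0169 and 0.237 unnormalized FPKM, too low to compare.

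Of the 4 targets that restrain p53, 3 followed the bulk of the genes closely. MDM2, the ligase that marks p53 for breakdown, had unnormalized levels of 39.4 (vehicle A), 52.5 (vehicle B), 39.6 (DOX A) and 54.4 (DOX B) in WT, and 53.9, 66.3, 55.3 and 62.1 in SE. The WT libraries of letter A lay below all SE libraries, but WT DOX B, at 54.4, passed SE vehicle A, at 53.9. The difference was -0.36 log2 unnormalized (95% interval -0.71 to -0.02, limma adjusted p = 0.283) and 0.04 on the spike-in scale (-0.36 to 0.44). MDM4, the partner of MDM2 that blocks the activation domain of p53, PPM1D, a phosphatase that shuts the damage response off, and CCNG1, a cyclin that acts through MDM2, differed by -0.08, -0.04 and -0.08 unnormalized. Their WT and SE libraries overlapped on that scale. Spike-in normalization put them at 0.33, 0.37 and 0.32, somewhat under the median of all genes.

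The cell cycle arrest genes were lower in WT in unnormalized FPKM: CDKN1A, BTG2, GADD45A and PLK3 (4 of 4 tested) did not overlap between constructs. Of all genes 7.89% were lower in every WT library, and by limma 0 of the 4 were called on that scale. CDKN1A, the p21 inhibitor of cyclin-dependent kinases and the best known readout of p53, was at 42.3 (vehicle A), 41.1 (vehicle B), 44.4 (DOX A) and 40.5 (DOX B) unnormalized FPKM in WT and at 62.8, 49.5, 59.2 and 51.0 in SE. The SE libraries of letter A were the highest. The difference was -0.40 log2 (95% interval -0.62 to -0.17), or 1.32-fold lower in WT, with a limma adjusted p of 0.165 and 4.14% of genes lower still. On the spike-in scale it was 0.01 (-0.34 to 0.36), with levels from 42.7 to 55.0 in WT and from 41.7 to 56.7 in SE.

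GADD45A, a stress sensor that binds PCNA and CDK1, had unnormalized levels of 18.6 (vehicle A), 21.1 (vehicle B), 17.8 (DOX A) and 21.3 (DOX B) in WT against 29.3, 25.2, 27.2 and 24.4 in SE. Its difference was -0.43 log2 (standard error 0.089, limma adjusted p = 0.141). BTG2, an antiproliferative regulator of mRNA deadenylation, was at 11.6, 10.6, 11.2 and 10.1 in WT and at 23.5, 12.5, 23.0 and 12.3 in SE, in the same order. The gap came mostly from letter A of SE, which lay 0.91 log2 above letter B with vehicle, so the difference of -0.64 log2 carried a wide interval (-1.26 to -0.01). PLK3, a polo-like kinase of the stress response, ran from 6.01 to 7.32 in WT and from 7.73 to 8.48 in SE. All 4 genes overlapped between constructs on the spike-in scale, with differences from -0.22 (BTG2) to 0.14 (PLK3).

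Of the tested targets, PHLDA3 and BBC3, both apoptosis genes, had the lowest levels in WT. PHLDA3, a competitor of AKT for membrane lipids and so a brake on survival signalling, was at 0.655 (vehicle A), 1.29 (vehicle B), 0.807 (DOX A) and 0.991 (DOX B) unnormalized FPKM in WT and at 2.40, 1.98, 2.19 and 1.62 in SE. All 4 WT libraries lay below all 4 SE libraries, and WT vehicle A and B differed from each other by 0.875 log2. The difference between constructs was -1.08 log2 (95% interval -1.64 to -0.51, limma adjusted p = 0.151), 2.11-fold lower in WT, with 1.05% of genes lower still. On the spike-in scale it was -0.62 (-1.09 to -0.15, adjusted p = 0.0403), and WT vehicle B, at 1.52, just passed the lowest SE library, at 1.51. At levels this low each value rests on few fragments, and the depth of the libraries is unknown.

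BBC3 encodes PUMA, a BH3-only protein that frees BAX and BAK to open mitochondria. It was at 1.76 (vehicle A), 1.69 (vehicle B), 1.29 (DOX A) and 2.02 (DOX B) unnormalized FPKM in WT and at 3.07, 2.65, 2.83 and 2.45 in SE. The WT libraries were again all below the SE libraries. The difference was -0.68 log2 (95% interval -1.06 to -0.31, limma adjusted p = 0.157), 1.61-fold lower in WT, with 1.80% of genes lower. With spike-ins it was -0.25 (-0.60 to 0.10, adjusted p = 0.171), and the libraries overlapped. BAX, the pore-forming partner downstream of PUMA, was nearly equal in unnormalized FPKM, at 35.0 to 38.8 in WT and 37.2 to 41.1 in SE (difference -0.09).

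The death receptor genes were lower in WT in unnormalized FPKM without overlap, as were 7.89% of all genes. TNFRSF10B, the TRAIL receptor DR5, was at 13.95 (vehicle A), 14.4 (vehicle B), 14.2 (DOX A) and 14 (DOX B) in WT and at 19.6, 17.0, 19.3 and 17.1 in SE, a difference of -0.36 log2 with the small standard error of 0.065. Its limma adjusted p was 0.108, and on the spike-in scale the difference was 0.05. FAS, the receptor of FAS ligand, ran from 2.19 to 2.97 in WT and from 3.03 to 3.32 in SE (-0.30). AEN, a nuclease of apoptotic DNA degradation, ran from 27.9 to 30.2 in WT and from 30.6 to 32.4 in SE, separated by a small gap (-0.13).

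The remaining apoptosis genes differed as much between letters as between constructs. TP53INP1, an antiproliferative and autophagy-linked p53 cofactor, was at 4.80 (vehicle A), 3.14 (vehicle B), 4.81 (DOX A) and 3.48 (DOX B) unnormalized FPKM in WT and at 6.4, 4.54, 6.5 and 4.45 in SE. Letter A exceeded letter B in both constructs, and the WT libraries of letter A lay above the SE libraries of letter B. The difference between constructs was -0.43 log2 (limma adjusted p = 0.336). With the letter as a block TP53INP1 was the only target called in unnormalized FPKM, where 141 of 11340 genes were called. However, the letters are not shown to pair libraries across constructs. With 1 mean per construct and letter 0 targets were called on that scale, where 10 of 11340 genes were. CYFIP2, a member of the WAVE actin-regulating complex, was at 36.6, 56.3, 37.8 and 57.0 in WT, in the same order, and at 61.2, 53.9, 62.3 and 53.9 in SE. The WT libraries of letter A lay below all SE libraries, and those of letter B lay within the SE range. TRIAP1, a mitochondrial lipid-transfer protein that inhibits apoptosis, was at 94.4, 68.3, 93.1 and 65.9 in WT and at 64.5, 70.9, 65.9 and 74.4 in SE. Its WT libraries of letter A lay above all SE libraries, and those of letter B lay within the SE range. The difference between constructs was 0.20 log2 unnormalized (limma adjusted p = 0.453) and 0.61 on the spike-in scale (adjusted p = 0.0473).

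TP53I3 was the target that set itself apart in the other direction. It encodes a quinone oxidoreductase that is linked to reactive oxygen and p53-driven apoptosis. In unnormalized FPKM it was at 9.42 (vehicle A), 12.1 (vehicle B), 9.76 (DOX A) and 10.9 (DOX B) in WT and at 7.32, 6.73, 7.42 and 6.55 in SE. Spike-in-normalized, it was at 11.96, 13.2, 12.2 and 11.6 in WT and at 6.62, 6.79, 5.28 and 5.99 in SE. The constructs did not overlap on either scale. The spike-in difference over both treatments was 0.98 log2 (95% interval 0.74 to 1.23, limma adjusted p = 0.00287), 1.98-fold, and 98.6% of genes lay below it. In unnormalized FPKM it was 0.58 (0.35 to 0.81), 1.49-fold, with an adjusted p of 0.0938. Both are about 0.56 above the median of all genes.

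By treatment, TP53I3 was the only target called in DOX on the spike-in scale, at 1.07 log2 (limma adjusted p = 0.0432), where 0.105% of genes were called. In vehicle 0 of 27 targets were called, where 0.183% of genes were. TP53I3 there was at 0.90 (adjusted p = 0.0900), and the count at an unadjusted limma p under 0.05 was 2 (TP53I3 and PHLDA3), where 7.12% of genes had one. Leaving out WT DOX A, SE vehicle A, SE DOX A or SE vehicle B ended the call in DOX, and leaving out SE DOX B raised the number of targets called to 10, where 8286 of 11465 genes were called. TP53I3 shares its locus with FAM228B, and reads of overlapping genes cannot be told apart by a kit that does not mark strand. FAM228B was at 0.674 to 0.949 unnormalized FPKM in WT and 0.859 to 1.49 in SE, and its part in the TP53I3 difference was not tested.

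The split between TP53I3 and the apoptosis pair can be read inside each library, where a factor common to the whole library cancels. The 2 scales differ by more than such a factor, so the ratios are not the same on both. These genes were picked for the split, so the ratios are a description with no test. TP53I3 stood at 14.4 (vehicle A), 9.38 (vehicle B), 12.1 (DOX A) and 11.0 (DOX B) times PHLDA3 in unnormalized FPKM in WT, and at 3.05, 3.41, 3.38 and 4.04 times in SE. Against BBC3 it stood at 5.35, 7.15, 7.57 and 5.42 times in WT and at 2.39, 2.54, 2.62 and 2.67 times in SE, in the same order. PHLDA3 against BBC3 ran from 0.373 to 0.763 in WT and from 0.661 to 0.783 in SE, and so overlapped. On the spike-in scale TP53I3 stood at 8.7 to 13.1 times PHLDA3 in WT and at 2.97 to 3.97 times in SE. Against BBC3 it stood there at 5.21 to 6.89 times in WT and at 2.36 to 2.66 times in SE.

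**Figure D3:**
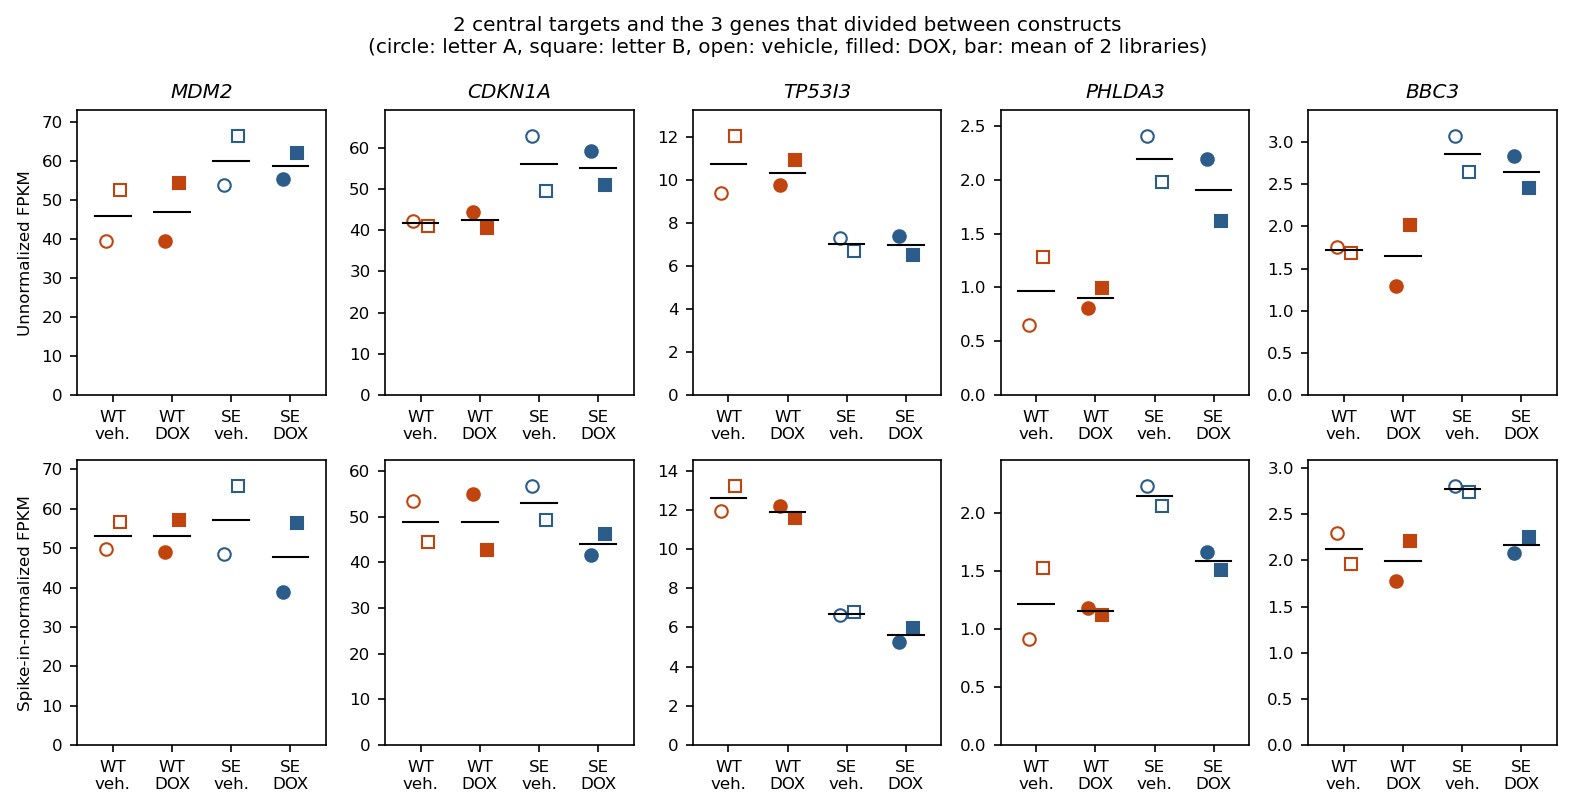
Levels in each of the 8 libraries of MDM2, CDKN1A, TP53I3, PHLDA3 and BBC3, in unnormalized (top) and spike-in-normalized FPKM (bottom), with WT in red, SE in blue, letter A as circles, letter B as squares, vehicle open, DOX filled and a bar at the mean of 2 libraries. TP53I3 is higher in every WT library in both rows, PHLDA3 and BBC3 are lower in every WT library in the top row, and vehicle and DOX points of a letter lie close together for most genes in the top row.

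The other redox and mitochondrial targets went with the majority. SESN1, a stress protein that restrains mTORC1, was at 5.54 (vehicle A), 6.63 (vehicle B), 5.89 (DOX A) and 7.0 (DOX B) unnormalized FPKM in WT and at 7.45, 7.96, 7.56 and 8.24 in SE. FDXR, the reductase that passes electrons to mitochondrial ferredoxin, ran from 7.10 to 7.66 in WT and from 8.08 to 9.60 in SE. Neither overlapped between constructs, where 7.89% of all genes were lower in every WT library. Their differences were -0.32 and -0.29 log2 (limma adjusted p of 0.204 and 0.168). TP53I3 and its 2 tested neighbours in role thus lay on opposite sides of the gene median.

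The DNA repair and nucleotide supply genes lay between -0.20 and -0.08 log2 in unnormalized FPKM. DDB2, the damage-binding protein of global repair, was the only 1 of the 4 to separate in unnormalized FPKM, where 7.89% of all genes were lower in every WT library. DDB2 was at 24.1 to 26.6 in WT and 27.6 to 29.5 in SE (-0.17 log2). XPC, its partner in damage recognition, POLH, the polymerase that bypasses ultraviolet lesions, and RRM2B, a ribonucleotide reductase subunit, differed by -0.20, -0.08 and -0.10, with overlap. With spike-in normalization the 4 lay between 0.22 and 0.33, with 0 called and limma adjusted p of 0.0559 for RRM2B and 0.0577 for POLH.

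Among the remaining targets, ZMAT3, a zinc-finger RNA-binding regulator of splicing, was at 6.18 (vehicle A), 5.92 (vehicle B), 6.05 (DOX A) and 6.12 (DOX B) unnormalized FPKM in WT and at 9.47, 7.01, 10.1 and 6.62 in SE. The WT libraries were nearly equal, while letter A of SE was well above letter B (difference -0.42 log2, limma adjusted p = 0.259). RPS27L, a ribosomal protein relative of RPS27 whose near copy can take some of its reads, ran from 56.0 to 59.9 in WT and from 63.6 to 70.9 in SE (-0.22). TRIM22, an antiviral ubiquitin ligase that interferon also induces, ran from 19.98 to 26.9 in WT and from 27.5 to 30.4 in SE (-0.31). All 3 were lower in each WT library in unnormalized FPKM, where 7.89% of all genes were, and overlapped on the spike-in scale.

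Promoters from RefSeq (GRCh38.p14, 250 bases before to 50 after the gene start) were at hand for 25 of the 31 targets. They were searched on both strands for the p53 response element by name, as 20 bases with no spacer, its cores intact and at most 3 mismatches elsewhere. AEN (2 mismatches), RPS27L (3) and GDF15 (3) held a match, 12% of the 25 beside 0.418% of 27305 promoters. This was the loosest cutoff tried. The full element without mismatch, with a spacer of 0 to 13 bases, was in 0 of the 25, beside 0.0293% of all promoters. With no spacer and at most 1 mismatch it was 0 (0.0439%), and with at most 2 it was 1 (0.15%). The AEN match lies 34 to 15 bases before the start, the RPS27L match 69 to 50 before it, and the GDF15 match 29 to 48 bases into the transcript. AEN and RPS27L are shown because both separated between constructs in unnormalized FPKM, and GDF15 because its low level did not allow a comparison. Each sequence is written 5′ to 3′ on the strand of the gene, with the matched element in capitals. AEN is on the plus strand at chr15:88621296-88621335, RPS27L on the minus strand at chr15:63157517-63157556 and GDF15 on the plus strand at chr19:18386186-18386205.
AEN: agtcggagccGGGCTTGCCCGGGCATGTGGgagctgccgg
RPS27L: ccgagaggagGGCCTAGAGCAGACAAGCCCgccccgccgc
GDF15: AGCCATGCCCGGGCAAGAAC
A match describes letters only. Many p53 elements lie further from the start or in introns, outside these windows.

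No target was called for DOX in either construct. In WT the spike-in-normalized differences of DOX minus vehicle lay between -0.16 (FAS) and 0.05 (SESN1) log2 for the 27 targets, and their median was -0.04 beside -0.03 for all genes. In SE they lay between -0.42 (PHLDA3) and -0.18 (XPC), with a median of -0.25 beside -0.24 for all genes. Those medians were -0.11 and -0.05 without SE DOX A, and -0.40 and -0.43 without SE DOX B. All 27 were thus lower in SE with DOX on that scale, by about as much as the whole transcriptome, and in unnormalized FPKM the SE range was -0.20 to 0.05. By limma 0 of 27 were called in WT, in SE or for the difference of the DOX effects, where 0.0698%, 0.0523% and 0.0785% of genes were called, and 0 of 27 had an unadjusted p under 0.05 in any of these, where 0.323%, 0.436% and 0.288% of genes did. With the letter as a block 0 of 27 were called as well, where 8, 6 and 13 of 11465 genes were. That block takes the gap between letters as equal in both constructs, which is not shown. It therefore does not remove the spread between letters within a construct. The intervals had a median half-width of 0.45 log2 in each construct in the fit that takes the libraries of a letter as separate samples.

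CDKN1A and MDM2, the usual readouts, showed this in full. CDKN1A differed between DOX and vehicle by -0.01 log2 in WT and -0.27 in SE with spike-in normalization, with 95% intervals of -0.50 to 0.49 and -0.76 to 0.23. MDM2 differed by 0.00 (-0.57 to 0.57) and -0.27 (-0.84 to 0.30). These intervals take the libraries of a letter as separate samples and so include the spread between letters. Within letters A and B, CDKN1A differed by 0.04 and -0.06 in WT and by -0.44 and -0.09 in SE. For MDM2 these values were -0.02 and 0.02 in WT and -0.32 and -0.22 in SE. The split described above was there with vehicle too: in unnormalized FPKM, TP53I3, PHLDA3 and BBC3 differed between constructs by 0.59, -1.16 and -0.70 log2 in vehicle and by 0.56, -1.0 and -0.67 in DOX.

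**Figure D4:**
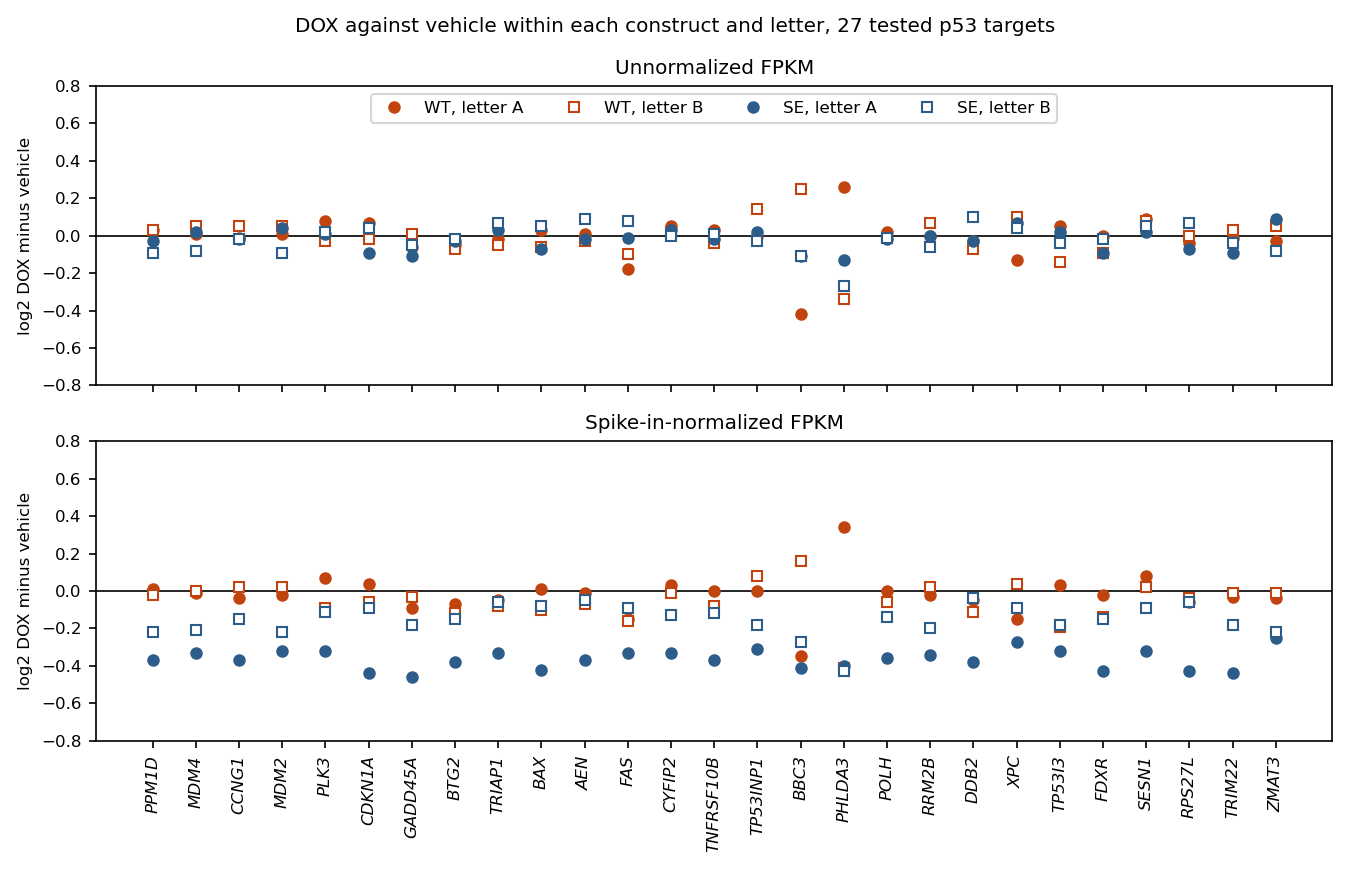
Log2 difference of DOX minus vehicle for the 27 tested p53 targets within each construct and letter, in unnormalized (top) and spike-in-normalized FPKM (bottom), with WT in red, SE in blue, letter A filled and letter B open. Unnormalized points lie close to 0 except for PHLDA3 and BBC3, the targets of lowest level, and on the spike-in scale the SE points lie below 0.

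In unnormalized FPKM, libraries of a letter were far more alike than libraries of different letters. There the median absolute log2 difference of the 27 targets was 0.028 to 0.052 between vehicle and DOX of the same construct and letter. Between letters A and B of the same construct and treatment it was 0.14 to 0.20, with the largest gap in BTG2 of the SE vehicle libraries (0.91). All genes, with small RNA names left out, gave 0.036 to 0.054 and 0.11 to 0.13. A difference between constructs therefore rests on 2 letters a construct more than on 4 libraries. On the spike-in scale the targets gave 0.038 and 0.058 within a letter and 0.17 and 0.19 between letters in WT. In SE the letters were not more alike on that scale, with 0.37 (A) and 0.15 (B) within a letter. Between letters SE gave 0.11 with vehicle and 0.31 with DOX.

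Other genes of the pathway lay nearer to the median of all genes. Of 63 further p53 targets 52 were tested. Their median difference between constructs was -0.05 log2 unnormalized and 0.36 on the spike-in scale, and 33 of 52 lay below the median of all genes on the latter, where 25 were called higher and 0 lower, beside 60.1% and 0.419% of all genes. In unnormalized FPKM 0 of the 52 were called. The unnormalized differences of smallest p in this list were TNFAIP8, an apoptosis regulator (0.20, limma adjusted p = 0.151), DRAM1, a lysosomal protein of p53-driven autophagy (-0.64, 0.165), FBXO22, a ubiquitin ligase subunit (-0.22, 0.209), and PLXNB2, a semaphorin receptor (-0.45, 0.219). DRAM1 and PLXNB2 had the sign and about the size of the 31 targets' larger differences, and TNFAIP8 had the opposite sign.

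Among relatives and modifiers of p53, 25 were listed and 22 tested on the spike-in scale, where 18 were called higher in WT and 0 lower, again beside 60.1% and 0.419% of all genes. In unnormalized FPKM 0 of 21 tested were called. Their median was 0.48 log2, slightly above that of all genes, and 0.07 unnormalized. CREBBP, an acetyltransferase coactivator, was at -0.17 log2 unnormalized (limma adjusted p = 0.201) and KAT5, which acetylates p53, at 0.11 (0.257). Genes that p53 lowers through CDKN1A and the DREAM repressor complex lay near the bulk. Of 33 tested, 13 were called higher and 0 lower after spike-in normalization, where 60.1% and 0.419% of all genes were, 0 were called in unnormalized FPKM, and the median was 0.38 there and -0.03 unnormalized. Within this list RRM2, a ribonucleotide reductase subunit, was at 0.27 unnormalized (limma adjusted p = 0.222), and CDC25C, a mitotic phosphatase, at -0.44 (0.175).

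Markers of other cells were low, and the sums of the T-cell and adherent-cell lists differed between constructs without overlap. The summed unnormalized level of the B-cell precursor list was 2400 to 2650 in WT and 2230 to 2590 in SE, so it overlapped. T-cell list sums were 24.5 to 25.9 in WT and 17.1 to 20.9 in SE, from ZAP70 and GATA3, while CD3G, CD2 and TRAT1 were listed at 0 in all 8 libraries. Adherent-cell list sums were 5.04 to 5.64 in WT and 6.16 to 10.3 in SE, from PDGFRB, TAGLN and ACTA2, with LUM, EPCAM and KRT18 at 0. Myeloid list sums overlapped, at 4.42 to 7.60 and 4.92 to 7.41, with ELANE, FCGR3A, S100A8 and S100A9 at 0. The part of these markers in the targets' differences was not tested. For 18 of the 31 targets RefSeq places another gene over part of their span, ACTA2 over FAS among them, so some fragments may be shared.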

How the data were processed

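For 8 poly(A) libraries made with a TruSeq v2 kit the authors deposited an unnormalized and a normalized FPKM table of 23713 rows each, including 92 spike-ins. The submitters' processing notes name HISAT, Cufflinks 2.0.0 and hg19. Per the labels' protocols, the spike-in mix was diluted 1000-fold and 1 µl went into every RNA sample. Spike-in sums were nearly equal in the normalized table, but the sources used here do not say how it was made. The files hold no read counts, so depth and counting intervals are unknown.

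The main scale was log2(spike-in-normalized FPKM + 0.1), which understates changes of low genes. Genes had to average at least 1 FPKM, and spike-ins were dropped, which left 11465 genes, and 11340 by the same rule in the unnormalized table. limma 3.58.1 in R 4.3.3 (4 group means, empirical Bayes with trend, Benjamini-Hochberg over all genes) gave the tests, and the script was tested on simulated data. Differences between constructs over both treatments are the mean of the vehicle and DOX differences. Where the labels do not say how cultures were kept apart, p-values measure the spread between these samples, which may be partly technical. The comparisons between constructs share libraries, and so do the DOX effects and their difference.

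The 31 genes and all lists were chosen with earlier results of these data known. Values per library are given for TP53I3, PHLDA3, BBC3, CDKN1A, MDM2 and the 12 targets farthest from the median of all genes between constructs. 1 further gene that this rule names is not reported here. TRIAP1 was added after its values were seen. Of other lists, members of smallest p are named. The alternatives tried were pseudocount 1, the unnormalized table, equal library medians, no filter, small RNA names left out, the letter as a block, empirical Bayes settings, the groups compared alone, means per letter, and leaving out each library. RefSeq promoters (GRCh38.p14) were used for sequence, and no coordinates from the authors' build are given.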

Additional observations from a re-analysis of the deposited data

How the results depend on the processing

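The limits are 2 libraries a group, unknown depth, and a normalization that decides the sign for targets near 0. Of 27 targets, 25 lay below the median of all genes under each alternative tried and each library left out, on both scales, except with no filter, where the count was 18 of 31 on the spike-in scale and 27 of 31 unnormalized. The block, the empirical Bayes settings, equal medians and means per letter leave each gene's distance from the median unchanged. These settings could therefore not move that count. The count of targets called over both treatments (5) was 0 with unnormalized FPKM and with equal library medians, 1 with no filter, with the letter as a replicate block and with means per letter (also without small RNA names), and 2 with no mean-variance trend. It ran from 1 to 10 with single libraries left out: 1 without SE vehicle A, SE DOX A, SE vehicle B, WT vehicle A or WT DOX A, 3 without WT vehicle B or WT DOX B, and 10 without SE DOX B. In DOX the count (1) was 0 with unnormalized FPKM, equal medians, pseudocount 1, no filter or no trend, 3 with robust empirical Bayes, and 0 to 10 with single libraries left out. In vehicle the count (0) was 1 without small RNA names, also with the replicate block, and 1 with robust empirical Bayes. In unnormalized FPKM over both treatments it (0) was 1 (TP53INP1) with the block and 0 with means per letter, where 141 and 10 of 11340 genes were called. With the block and without small RNA names, 4 were called over both treatments on the spike-in scale (PHLDA3, PPM1D, TP53I3 and TRIAP1). In that fit 6963 of 11163 genes were called. Targets lower in every WT library on the spike-in scale (0) were 0 to 1 with single libraries left out, which can only keep or raise that count. It was 1 without SE DOX B (0.462% of genes) or WT vehicle B (0.41%).

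Signs turned over both treatments for CDKN1A (-0.40 unnormalized, -0.39 with equal medians, -0.08 to 0.10 with single libraries left out), MDM2 (-0.36, -0.36, -0.09 to 0.18), TNFRSF10B (-0.36, -0.35, -0.01 to 0.11), CYFIP2 (-0.33, -0.33, -0.02 to 0.18), SESN1 (-0.32, -0.31, -0.02 to 0.22) and GADD45A (-0.07 to 0.04 with single libraries left out), and for BBC3 in DOX (-0.28 to 0.03, the last without WT DOX A). TP53I3 stayed between 0.94 and 1.03 and PHLDA3 between -0.79 and -0.45 with single libraries left out. Over all genes the count called over both treatments (6936) was 56 unnormalized, 50 with equal medians, 57 with no filter, 182 with the block and 338 with means per letter, of which 22, 21, 17, 157 and 265 were higher in WT, against 6888 of 6936. With single libraries left out it was 36 without SE DOX A, 67 without SE vehicle A, 94 without WT vehicle A, 96 without WT DOX A, 99 without SE vehicle B, 4802 without WT vehicle B, 6203 without WT DOX B and 8903 without SE DOX B. In DOX it (12) was 14 to 8286 with single libraries left out, the last without SE DOX B, 4848 with robust empirical Bayes and 520 and in vehicle (21) 55 without small RNA names. Within a construct, deviations of the vehicle and DOX libraries of a letter correlated at 0.767 in WT and 0.739 in SE without small RNA names, and at 0.0863 and 0.116 with them. Across constructs the letters are not shown to pair the libraries (0.0325 to 0.127 without small RNA names).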
